A study of Mus musculus with 14 samples.

Results

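The circadian clock genes were read in RNA of single dentate gyri cut from mouse organotypic entorhino-hippocampal cultures. They are the 10 rows of the count tables named Per1, Per2, Per3, Cry1, Cry2, Arntl, Clock, Dbp, Nr1d1 and Nr1d2, of 55291 rows in all. All 10 passed the filter on low counts. 8 libraries came from APPko cultures (APP-/-, deficient in the amyloid precursor protein) and 6 from wildtype cultures (C57BL/6J, APP+/+). The cultures of both genotypes were prepared at postnatal day 4 to 5 and kept for at least 18 days in medium with horse serum, which was renewed 3 times a week. Each library held the RNA of 1 dentate gyrus, and the labels do not say which cultures came from the same animal, so the p-values rest on culture-to-culture spread alone. The labels give neither the hour of dissection nor the interval since the last change of medium, so no library can be placed on a daily cycle.

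The mammalian clock is a transcriptional feedback loop that runs in most cells. ARNTL (BMAL1) and CLOCK bind E-boxes and switch on the Per and Cry genes, whose proteins return to the nucleus and repress them. In a second loop ARNTL and CLOCK switch on Nr1d1 and Nr1d2, whose products, the REV-ERB repressors, bind RORE sites and hold Arntl down. Dbp is a direct target of ARNTL and CLOCK, and its protein acts on D-boxes, among others those of Per genes. In slices and cultured cells the clocks of single cells drift apart over time, and glucocorticoids, serum and fresh medium can set them again. Arntl and the genes it drives through E-boxes, such as Per3, Nr1d1, Nr1d2 and Dbp, peak at opposite times in many tissues.

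Promoter sequences of Arntl, Per3 and Nr1d2, whose levels set 4 libraries apart, and of the period and cryptochrome genes with an E-box, show which of these sites lie near the starts. They are RefSeq windows on GRCm38.p6 from 250 bases before to 50 bases after a gene's start, written 5' to 3' on the gene's strand, with the motifs in capitals. All motifs were searched on both strands. The E-box was CACGTG, which reads the same on either strand. A variant that ARNTL and CLOCK also bind was searched as CACGTT and stands in the windows as its reverse complement. The D-boxes were TTATGTAA and TTACGTAA, the RORE was ANTNGGTCA and the CRE was TGACGTCA. No matches overlap in the windows printed. The windows are Arntl at chr7:113207261-113207560 (+ strand, the second of its windows), Per3 at chr4:151044616-151044915 (- strand), Nr1d2 at chr14:18239057-18239356 (- strand), Per1 at chr11:69098699-69098998 (+ strand, the first of its windows) and Cry1 at chr10:85185005-85185304 (- strand).
Arntl: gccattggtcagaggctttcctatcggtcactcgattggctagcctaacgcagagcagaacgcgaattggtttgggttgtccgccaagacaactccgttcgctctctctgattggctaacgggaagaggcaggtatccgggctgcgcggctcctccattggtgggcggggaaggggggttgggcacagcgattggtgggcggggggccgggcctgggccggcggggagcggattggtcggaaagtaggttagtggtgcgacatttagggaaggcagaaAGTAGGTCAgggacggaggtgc
Per3: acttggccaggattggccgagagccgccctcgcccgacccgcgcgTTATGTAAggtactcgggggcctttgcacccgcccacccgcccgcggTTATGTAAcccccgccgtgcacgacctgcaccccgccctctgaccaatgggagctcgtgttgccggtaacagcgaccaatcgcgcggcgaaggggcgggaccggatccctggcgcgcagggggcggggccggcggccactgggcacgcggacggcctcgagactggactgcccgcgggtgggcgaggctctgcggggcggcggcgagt
Nr1d2: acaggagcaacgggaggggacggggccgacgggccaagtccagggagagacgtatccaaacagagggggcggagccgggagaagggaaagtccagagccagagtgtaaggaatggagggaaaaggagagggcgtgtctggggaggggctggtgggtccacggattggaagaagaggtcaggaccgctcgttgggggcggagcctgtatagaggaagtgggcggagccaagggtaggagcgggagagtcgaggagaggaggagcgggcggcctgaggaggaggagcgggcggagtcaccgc
Per1: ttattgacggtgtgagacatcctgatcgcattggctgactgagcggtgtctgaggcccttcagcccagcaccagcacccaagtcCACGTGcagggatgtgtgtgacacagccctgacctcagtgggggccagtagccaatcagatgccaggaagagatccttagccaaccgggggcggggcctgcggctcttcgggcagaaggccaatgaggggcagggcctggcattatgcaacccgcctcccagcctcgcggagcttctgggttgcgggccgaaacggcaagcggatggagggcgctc
Cry1: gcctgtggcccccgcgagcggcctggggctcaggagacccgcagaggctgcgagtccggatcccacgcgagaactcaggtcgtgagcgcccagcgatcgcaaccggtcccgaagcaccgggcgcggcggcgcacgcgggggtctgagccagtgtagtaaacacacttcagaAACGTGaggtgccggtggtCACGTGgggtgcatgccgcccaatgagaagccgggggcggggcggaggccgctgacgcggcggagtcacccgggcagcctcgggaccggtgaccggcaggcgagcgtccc

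The Arntl window holds 1 RORE, at position 28 after the start, and the Per3 window holds 2 D-boxes of the same letters, at positions -205 and -158 from the start. The Per1 window holds an E-box at position -166, and the Cry1 window holds an E-box at -60 and the variant at -79. None of the motifs lies in the Nr1d2 window. Among the 13 windows matched to 9 of the 10 genes, the Cry2 and Nr1d1 windows each hold 1 such variant, at -166 in Cry2 and -28 in Nr1d1, and the windows of Clock and Dbp hold none of the motifs. Per2 is named only. Of 32851 RefSeq windows of the same length, 7.15% hold an E-box, 4.68% the variant, 1.06% a D-box, 2.24% a RORE and 1.79% a CRE, so matches of this kind are found by letters alone in many genes.

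App itself went with the labels, at 214 ± 17.9 CPM in APPko (SD, n = 8) and 809.5 ± 131 CPM in wildtype (SD, n = 6), where CPM are TMM-scaled counts relative to library size. The log2 change was -1.92 (SE 0.11, edgeR adjusted p = 9.19e-09). Totals per library ran from 16686909 to 31031126 counts. The count table headers end in f or m, and 7 APPko and 3 wildtype libraries carry f, while 1 APPko and 3 wildtype libraries carry m. Xist lay between 1.08 and 2.22 CPM in the 4 m libraries and between 85.7 and 208 CPM in the 10 f libraries, and the summed level of 3 Y-linked genes was at least 334.5 CPM in m and at most 4.68 CPM in f libraries. Wildtype libraries 2 and 3 had TMM factors of 0.852 and 0.847, against 0.976 or more in the others. Markers of granule cells summed to 492 to 883 CPM in APPko and 676 to 1279 CPM in wildtype, and none of their 9 genes was at 0 throughout.

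Between the genotypes none of the 10 clock genes passed the threshold, an adjusted p under 0.05 in edgeR's quasi-likelihood test over 22150 genes. The threshold was passed by 521 genes (2.35%), 209 of them higher and 312 lower in APPko. At an unadjusted p under 0.05 stood 2 of the 10, Per3 and Nr1d2, and 4527 of all genes (20.4%). The log2 change was positive for Arntl alone and negative for the other 9, of which Cry2, Clock and Nr1d1 turned positive with total-count scaling. The 10 changes had a median of -0.12, beside -0.01 over all tested genes, of which 10699 had a positive and 11451 a negative change. The ranges of APPko and wildtype libraries overlapped for each of the 10, while they did not overlap for 247 tested genes (1.12%). With DESeq2 both Per3 and Nr1d2 passed the threshold, and Per3 did so with the suffix as covariate. Of the 22150 genes 1765 passed with DESeq2 and 1446 with the suffix as covariate.

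**Figure D1:**
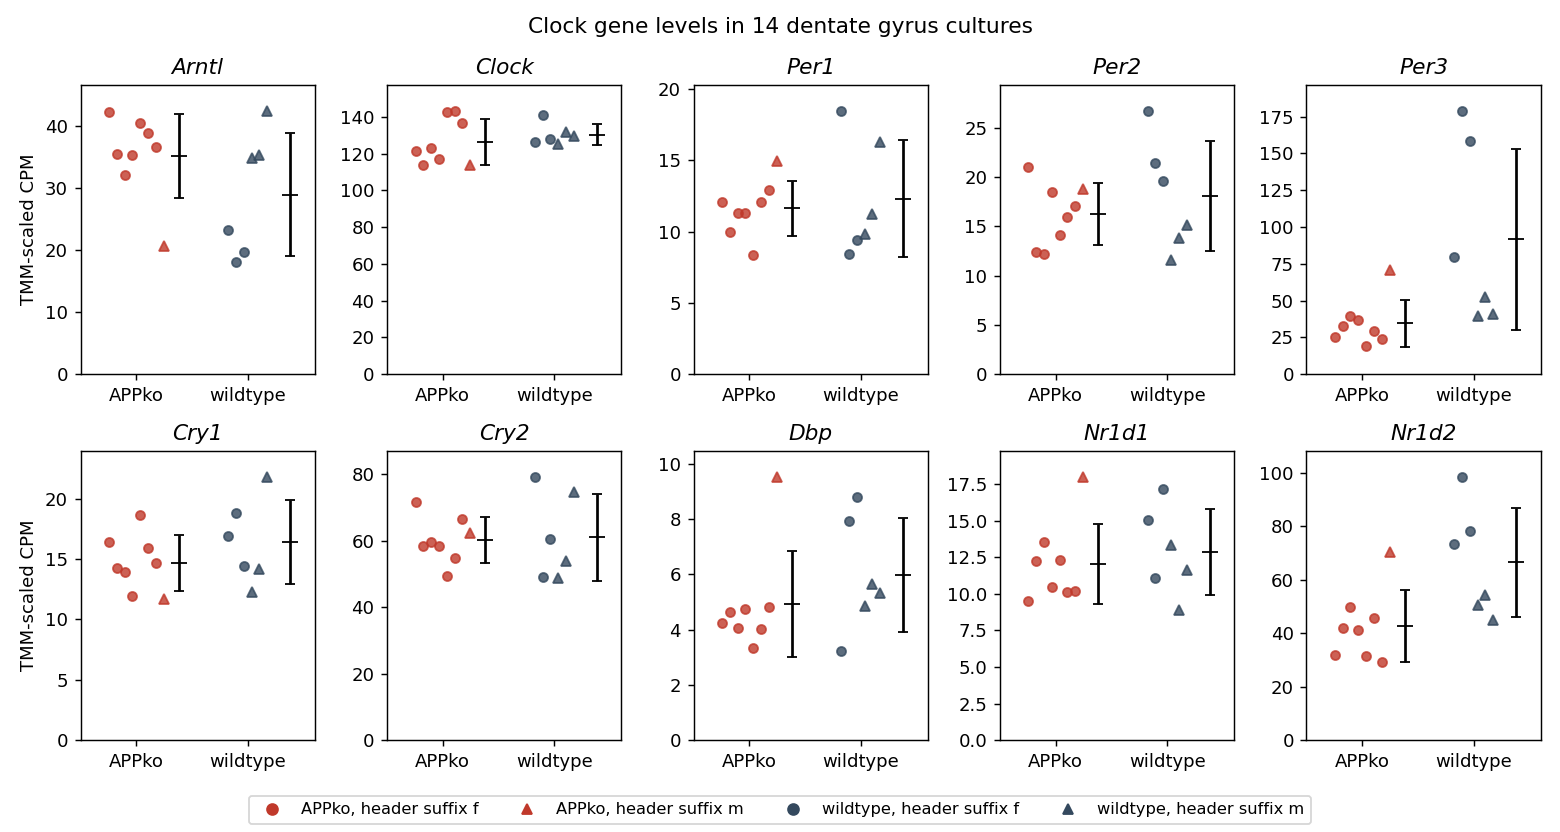
Level of each clock gene in TMM-scaled CPM (linear axes from 0) in 8 APPko and 6 wildtype libraries, circles for header suffix f and triangles for m, with the mean and SD of each genotype beside the points. Arntl is low in APPko library 8 (20.6 CPM) and wildtype libraries 1, 2 and 3 (18.1 to 23.2 CPM), and the same 4 libraries are the highest for Per3 and Nr1d2.

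Of the activators, Arntl (ENSMUSG00000055116.8, chr7:113207465-113314126, GRCm38) spanned 20.6 to 42.3 CPM with a median of 36.0 CPM in APPko and 18.1 to 42.4 CPM with a median of 29.0 CPM in wildtype. The means were 35.2 ± 6.72 CPM in APPko and 28.9 ± 9.91 CPM in wildtype, and the log2 change of 0.28 (SE 0.19, 95% interval -0.11 to 0.68) did not pass the test (edgeR adjusted p = 0.419). The libraries did not scatter evenly. In APPko library 8 and wildtype libraries 1, 2 and 3 Arntl had 20.6, 23.2, 18.1 and 19.7 CPM, and in the other 10 libraries it had 32.0 to 42.4 CPM. The empty stretch between these sets was 8.82 CPM wide, against at most 2.73 CPM between other neighbours. Every f library of APPko thus lay above every f library of wildtype, and the single m library of APPko lay below every m library of wildtype.

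Clock, the partner of ARNTL, was the most even of the 10. It had 113.5 to 143 CPM with a median of 122 CPM in APPko and 125 to 141 CPM with a median of 129 CPM in wildtype. The log2 change was -0.04 (SE 0.09, 95% interval -0.22 to 0.14, edgeR adjusted p = 0.825). Its highest library exceeded its lowest 1.26-fold, against 2.35-fold for Arntl.

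Per3 (ENSMUSG00000028957.12, chr4:151003652-151044665), a period gene with a lesser role in keeping rhythm, varied most. In APPko it had 25.0, 32.6, 39.2, 36.7, 18.9, 29.6 and 23.6 CPM in libraries 1 to 7 and 70.7 CPM in library 8, and in wildtype it had 79.8, 179 and 158 CPM in libraries 1 to 3 and 39.3, 52.4 and 41.2 CPM in libraries 4 to 6. The wildtype libraries 1 to 3 were thus above every other library, APPko library 8 came next, and the remaining 3 wildtype libraries stood just above the remaining 7 APPko libraries. The mean was 34.5 ± 16.1 CPM in APPko and 91.6 ± 61.7 CPM in wildtype, a log2 change of -1.41 (SE 0.36, 95% interval -2.18 to -0.64). The adjusted p was 0.0526 in edgeR's test, which misses the threshold. Without wildtype libraries 2 and 3 the log2 change was -0.61. Per3 passed the threshold without APPko library 8 or without wildtype library 4, 5 or 6. Over fits with 1 library left out its edgeR adjusted p ran from 0.0174 to 0.165, and 38 to 1436 of all genes passed.

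The other period genes moved less. Per1, which many signals induce within the hour, had 8.39 to 14.96 CPM with a median of 11.7 CPM in APPko and 8.45 to 18.5 CPM with a median of 10.6 CPM in wildtype. Its log2 change was -0.08 (SE 0.18, edgeR adjusted p = 0.857), and the highest values were in wildtype libraries 1 and 6. Per2, the period gene most tied to rhythm in mice, had 12.2 to 21.0 CPM with a median of 16.5 CPM in APPko and 11.6 to 26.7 CPM with a median of 17.4 CPM in wildtype. Its log2 change was -0.15 (SE 0.18, edgeR adjusted p = 0.675). Wildtype libraries 1 and 2 were highest for Per2, and the other 4 wildtype libraries lay mostly among those of APPko.

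The cryptochromes, the main repressors of ARNTL and CLOCK, did not differ between genotypes beyond their spread. Cry1 had 11.7 to 18.7 CPM with a median of 14.5 CPM in APPko and 12.2 to 21.8 CPM with a median of 15.7 CPM in wildtype (log2 change -0.16, SE 0.14, edgeR adjusted p = 0.57). Cry2 had 49.4 to 71.7 CPM with a median of 58.9 CPM in APPko and 48.9 to 79.1 CPM with a median of 57.01 CPM in wildtype. The 95% interval of the Cry2 log2 change ran from -0.27 to 0.24 around -0.02, and its sign turned with total-count scaling.

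Of the REV-ERB genes, Nr1d2 (ENSMUSG00000021775.11, chr14:18204054-18239127) varied more than Nr1d1. In APPko it had 31.8, 41.8, 49.6, 41.2, 31.3, 45.8 and 29.1 CPM in libraries 1 to 7 and 70.5 CPM in library 8, and in wildtype 73.2, 98.3 and 78.0 CPM in libraries 1 to 3 and 50.4, 54.1 and 44.99 CPM in libraries 4 to 6. The 4 libraries with the least Arntl were again the 4 highest. The mean was 42.6 ± 13.5 CPM in APPko and 66.5 ± 20.3 CPM in wildtype, and the log2 change of -0.64 (SE 0.20, 95% interval -1.06 to -0.23) did not pass the test (edgeR adjusted p = 0.0821). Without wildtype library 4, or without APPko library 8, it did. Over fits with 1 library left out 38 to 1436 of all genes passed.

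Nr1d1, its paralog, had 9.54 to 18.0 CPM with a median of 11.3 CPM in APPko and 8.90 to 17.2 CPM with a median of 12.5 CPM in wildtype. The log2 change was -0.10 (SE 0.16, edgeR adjusted p = 0.796), and APPko library 8 was the highest of all libraries. Dbp, the output factor, had 3.35 to 9.51 CPM with a median of 4.44 CPM in APPko and 3.23 to 8.81 CPM with a median of 5.49 CPM in wildtype, from 60 to 257 reads a library. Its log2 change was -0.28 (SE 0.24, edgeR adjusted p = 0.549). APPko library 8 and wildtype libraries 2 and 3 were highest for Dbp, but wildtype library 1, which was low for Arntl, had the least Dbp of all. Exons of Dbp and Nr1d1 overlap those of Sphk2 and Thra on the other strand over 18.0% and 8.55% of their length, and the strand setting of the counting is not given in the sources used here, so their counts may hold reads of these neighbours.

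**Figure D2:**
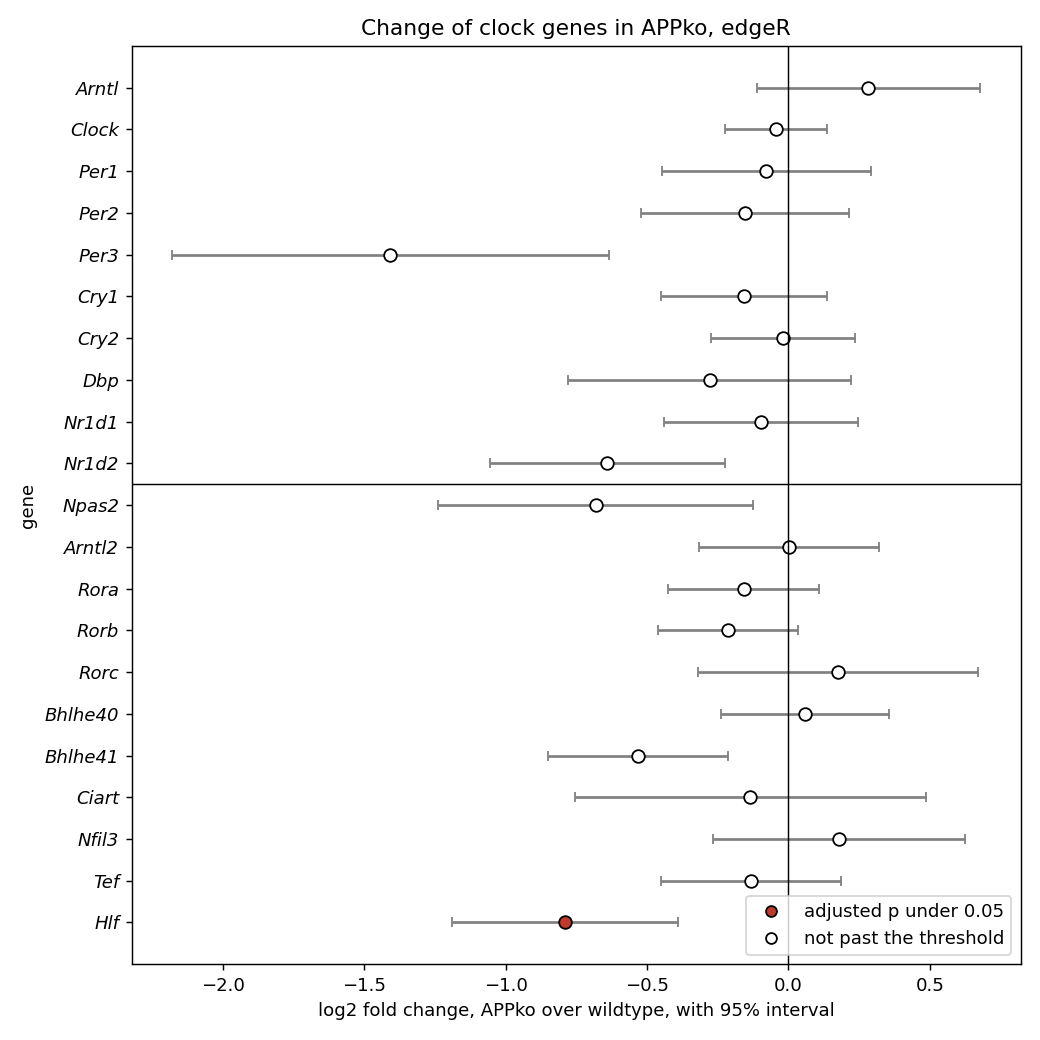
Log2 fold change of APPko over wildtype with its 95% interval (edgeR) for the 10 clock genes (above the line) and 11 other clock transcription factors (below it), filled where the adjusted p over all tested genes is under 0.05. Hlf alone is filled, at -0.79, and the widest interval among the 10 clock genes is that of Per3, from -2.18 to -0.64.

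Per kilobase of exon, Cry2, Clock and Nr1d2 had the highest levels, with medians over 14 libraries of 9.32, 9.25 and 8.82 CPM per kb. Arntl, Cry1, Per3 and Nr1d1 followed at 4.69, 4.36, 4.08 and 3.88 CPM per kb, and Per2, Per1 and Dbp came last at 2.82, 2.01 and 1.596 CPM per kb. The ranges of neighbours in this order overlapped for each neighbouring pair, and Per3 alone crossed most of it, from 1.96 to 18.6 CPM per kb. In bulk tissue a lower level from fewer cells of a type cannot be told apart from less RNA per cell.

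The spread between cultures of the same genotype set the genes apart from each other. The SD of log2 CPM within genotype was 0.76 for Per3, 0.47 for Dbp, 0.43 for Nr1d2 and 0.41 for Arntl, and 0.11 for Clock. Among 10034 tested genes with a mean between 5.37 and 128 CPM, the span of the 10 genes, Per3 stood at the 99th percentile of this SD, Dbp at the 92.5th, Nr1d2 at the 88.6th, Arntl at the 87th and Clock at percentile 3.18. The compared genes were not matched by level within this span. Dbp stands at its low end, 5.37 CPM, and Clock at its high end, 128 CPM. What part of their percentiles goes with level was not tested. The median SD of the 10 was 0.35, against 0.25 over the compared genes. From the lowest to the highest library Per3 changed 9.48-fold, Nr1d2 3.37-fold and Dbp 2.95-fold.

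**Figure D3:**
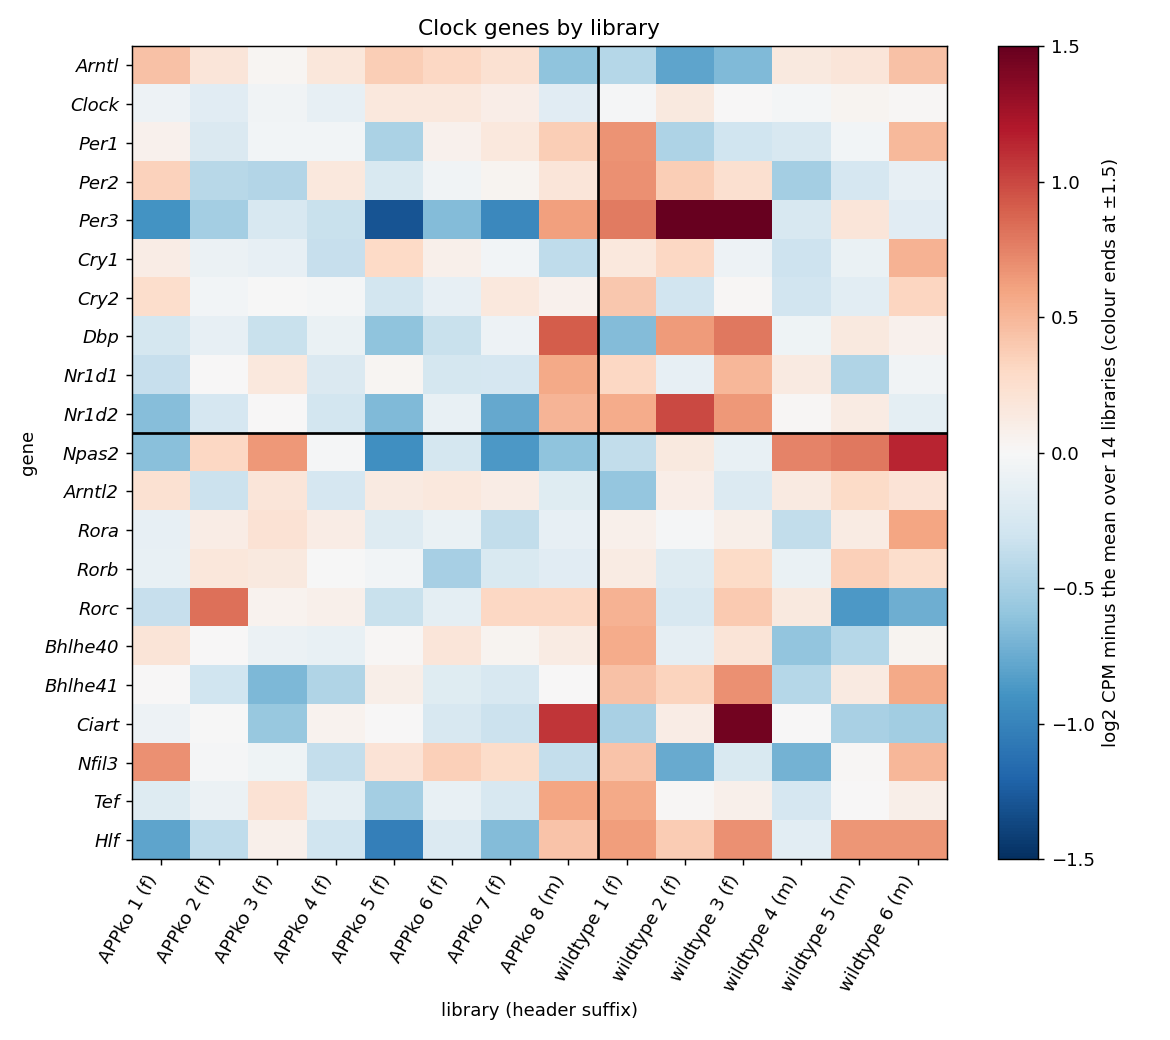
Log2 CPM minus the gene's mean over 14 libraries (colour scale ending at ±1.5) for the 10 clock genes (above the line) and 11 other clock transcription factors, with APPko libraries left and wildtype libraries right of the line and the header suffix in brackets. APPko library 8 and wildtype libraries 1 to 3 are blue for Arntl and red for Per3 and Nr1d2.

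Ratios of counts within a library involve no library scaling. Per3 counts over Arntl counts were 3.44 in APPko library 8 and at most 1.23 in the other 7 APPko libraries, and they were 3.44, 9.90 and 8.02 in wildtype libraries 1, 2 and 3 and 1.13, 1.48 and 0.973 in wildtype libraries 4, 5 and 6. The ratio of Nr1d2 to Arntl had a median of 1.18 and a highest value of 3.42 in APPko, reached in library 8, and a median of 2.34 in wildtype, with 3.16, 5.45 and 3.95 in libraries 1, 2 and 3. These 4 libraries were picked for little Arntl, so a ratio to Arntl is high in them also for an even gene. The ratio of Clock to Arntl was 5.52 in APPko library 8 and 5.45, 7.81 and 6.47 in wildtype libraries 1, 2 and 3, and 2.88 to 3.84 in the other 10 libraries.

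**Figure D4:**
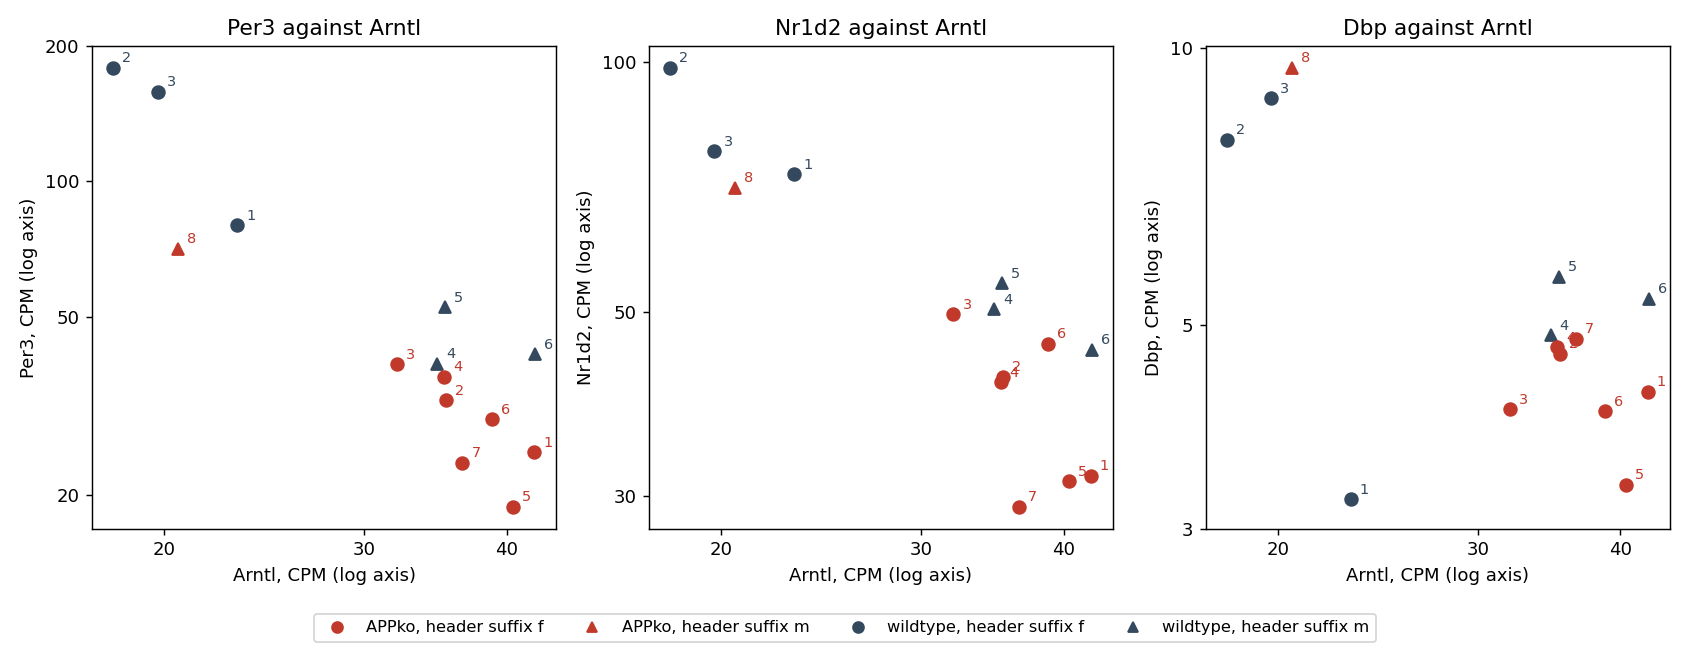
Per3, Nr1d2 and Dbp against Arntl, all in TMM-scaled CPM on log axes, 1 point a library with its number, red for APPko and blue for wildtype, circles for suffix f and triangles for m. The 4 libraries at 18.1 to 23.2 CPM of Arntl lie apart at the upper left for Per3 and Nr1d2, while for Dbp wildtype library 1 lies at the bottom.

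The 10 genes were then compared in pairs over the 14 libraries after the genotype means of log2 CPM were removed, 45 pairs in all. By permutation within genotype 4 pairs had an adjusted p under 0.05. 3 of them join Arntl, Per3 and Nr1d2, whose libraries fall into the separate sets described, so no pooled coefficient is given for these. Within the 10 libraries of the larger set, Per3 and Nr1d2 had a Pearson r of 0.837 (permutation p = 0.0112, Spearman rho 0.855, permutation p = 0.013). There Arntl and Per3 had r = -0.665 (permutation p = 0.0455, rho -0.636, permutation p = 0.0481), and Arntl and Nr1d2 had r = -0.641 (permutation p = 0.0543, rho -0.564, permutation p = 0.0819). Adjusted over 45 pairs these permutation p-values were 0.168, 0.323 and 0.323, and none of the 45 pairs passed within that set. No coefficient was computed for the smaller set, which has 4 libraries, 3 of them of 1 genotype.

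The remaining pair past the threshold was Per1 with Cry2, with r = 0.84 (permutation p = 0.00191, adjusted 0.0215) and rho = 0.802 (permutation p = 0.00292, adjusted 0.0329) over 14 libraries. Without the 2 libraries farthest from the median of Per1 its r was 0.572. Within the larger Arntl set it was 0.875 (permutation p = 0.00489, adjusted 0.168). Per3 with Dbp had r = 0.697 and rho = 0.547 over 14 libraries (permutation p = 0.0105 and 0.0682, adjusted 0.0943 and 0.438), which did not pass.

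As a description over all 13687 protein-coding genes with a mean of at least 1 CPM, and over 14 libraries that share the same sets and scaling, Per3 had the second lowest correlation with Arntl of all genes and Nr1d2 ranked 8 from the lowest. Nr1d1 and Dbp ranked 1333 and 1524 from the lowest. The genes most like Arntl were Eif4a1 (r = 0.946), Tmem229b, Svil, Gm1673 and Mapkap1 (r = 0.926), and among those most like Dbp were Tmem223 (r = 0.928), Ccpg1os, Cdca8 and Mrpl18 (r = 0.886). Per3 ranked 619 and Nr1d2 ranked 2010 among the genes most like Dbp.

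Because the genotypes hold f and m libraries in different proportions, the change was also fitted separately by suffix. The m change rests on 1 APPko library, the one already seen to stand apart, so the difference between m and f libraries is given as a value and was not tested. For Per3 the log2 change of APPko over wildtype was 0.68 in m and -2.24 in f libraries, a difference of 2.92. For Arntl it was -0.86 in m and 0.87 in f libraries, a difference of -1.74. For Nr1d2 it was 0.50 in m and -1.11 in f libraries, a difference of 1.61. For these 3 genes every f library of APPko lay on 1 side of every f library of wildtype, and the m library of APPko lay on the opposite side of the 3 m libraries of wildtype. How many of all tested genes do so was not counted.

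Within the f libraries 4 of the 10 genes passed the threshold in this fit, against 17.4% of all genes. Per3, Nr1d2 and Per2 were lower in APPko (log2 change -2.24, -1.11 and -0.51, edgeR adjusted p = 3.36e-05, 0.000473 and 0.0487) and Arntl was higher (0.87, edgeR adjusted p = 0.00056). Per2 did not pass when the f libraries were fitted alone. Among wildtype libraries alone, m against f, 3 of the 10 passed, against 3.39% of all genes. There Per3 was lower in m (log2 -1.65, edgeR adjusted p = 0.00936), Nr1d2 was lower (-0.74, edgeR adjusted p = 0.0435) and Arntl was higher (0.88, edgeR adjusted p = 0.00879). Both comparisons split the libraries as Arntl had already set them apart. Their p-values for Arntl, Per3 and Nr1d2 are therefore no separate evidence. Whether suffix, library or another difference between these cultures goes with the levels cannot be told apart, since the 4 libraries with little Arntl are 3 f libraries of wildtype and 1 m library of APPko.

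**Figure D5:**
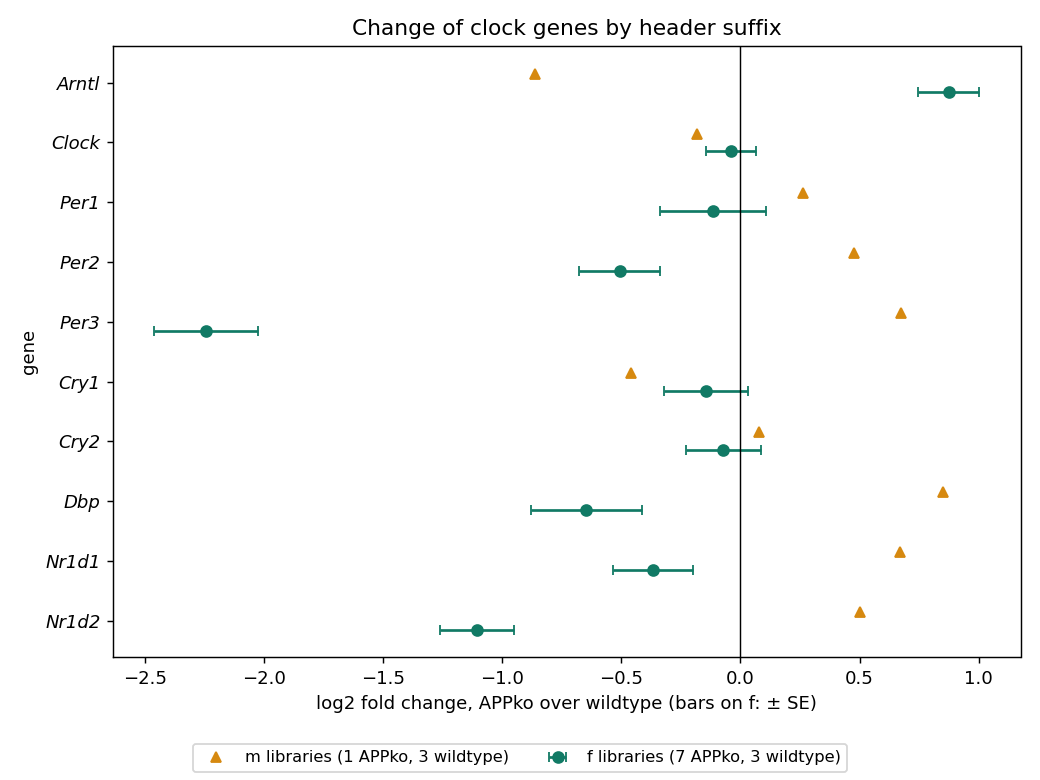
Log2 fold change of APPko over wildtype in m libraries (triangles, 1 APPko and 3 wildtype, no error drawn) and f libraries (circles with ± SE, 7 APPko and 3 wildtype) from 1 edgeR fit. The m and f values lie on opposite sides of 0 for Arntl (-0.86 and 0.87), Per3 (0.68 and -2.24) and Nr1d2 (0.50 and -1.11).

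Other measures of the 4 libraries stand beside these results. Genes detected numbered 30455 in APPko library 8 and 33149, 32598 and 28774 in wildtype libraries 1, 2 and 3, and 33089 to 39131 in the other 10. Mitochondrial genes took 5.09% of counts in APPko library 8 and 7.13%, 5.25% and 5.34% in wildtype libraries 1, 2 and 3, within the 4.77% to 7.34% of all libraries. Summed astrocyte markers (7 genes) were 5389 to 8115 CPM in APPko and 6109 to 8497 CPM in wildtype, neuronal markers (5 genes) 2961 to 3970 CPM and 3045 to 5393 CPM, and oligodendrocyte markers (6 genes) 554 to 964 CPM and 474 to 1416 CPM. No marker of these lists was at 0 throughout and none passed the test. Of 7 microglial markers C1qb and Tyrobp passed the threshold as higher in APPko, beside 209 of all 22150 tested genes. The 7 microglial markers together summed to 456 to 834.5 CPM in APPko and 330 to 678.5 CPM in wildtype. For the 4 libraries with little Arntl the sums stand here one by one. Neuronal markers summed to 3970 CPM in APPko library 8, the highest of APPko, and 3365, 4674 and 5393 CPM in wildtype libraries 1, 2 and 3. Astrocyte markers summed to 7337 CPM in APPko library 8 and 7119, 7943 and 8497 CPM in those wildtype libraries, and granule cell markers to 693 CPM and 676, 773 and 1279 CPM. Wildtype library 3 was the highest of all libraries for these 3 lists. Oligodendrocyte markers summed to 964 CPM in APPko library 8, again the highest of APPko, and 773, 474 and 570 CPM in wildtype libraries 1, 2 and 3, and microglial markers to 693 CPM and 330, 390 and 491 CPM. The part of these measures in the clock gene levels was not tested.

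Of 11 other clock transcription factors, 1 fell in APPko and none rose, with a median log2 change of -0.13. Among all 22150 tested genes 312 fell and 209 rose, with a median of -0.01. The clock transcription factor that fell was Hlf, a PAR bZIP factor of the Dbp family. It had 26.1 to 71.2 CPM with a median of 42.1 CPM in APPko and 47.5 to 85.6 CPM with a median of 82.8 CPM in wildtype, and the highest APPko value was again in library 8. The mean was 43.5 ± 14.7 CPM in APPko and 75.3 ± 14.9 CPM in wildtype, a 1.73-fold lower level (log2 change -0.79, SE 0.19, edgeR adjusted p = 0.041). The call was kept in 7 of 11 other settings (edgeR, DESeq2 and limma adjusted p from 0.00312 to 0.203). It was kept when APPko library 3, APPko library 8, wildtype library 1 or wildtype library 4 was left out, and lost without any 1 of the other 10 libraries (edgeR adjusted p up to 0.103). By suffix the log2 change of Hlf was -0.996 in f and -0.0081 in m libraries, where the m value rests on 1 APPko library. Bhlhe41 (DEC2), a repressor at E-boxes, averaged 98.7 ± 16.9 CPM in APPko and 143 ± 34.9 CPM in wildtype and did not pass (log2 change -0.53, edgeR adjusted p = 0.0662). It passed with DESeq2 (adjusted p = 0.0202), with the suffix as covariate (edgeR adjusted p = 0.0467), in f libraries alone (0.00556) and without wildtype library 4 (0.0103). Over all genes 1765 of 22150 passed with DESeq2 and 1446 of 22150 with the suffix as covariate. In f libraries alone 3672 of 23580 passed, and without wildtype library 4 it was 1436 of 22579.

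None of 14 kinases, ubiquitin ligases and related genes of the clock passed edgeR's test between the genotypes (median log2 change -0.06), while 1 passed with DESeq2 and 3 in f libraries alone. Over all genes 1765 of 22150 passed with DESeq2 and 3672 of 23580 in f libraries alone. Csnk2a1, the catalytic alpha subunit of casein kinase 2, which phosphorylates clock proteins, had 53.9 to 107 CPM with a median of 93.8 CPM in APPko and 28.6 to 97.4 CPM with a median of 66.0 CPM in wildtype (log2 change 0.57, edgeR adjusted p = 0.162). Its lowest APPko value was in library 8, and its lowest wildtype values were in libraries 2 and 3. By suffix its log2 change was -0.60 in m and 1.22 in f libraries, and in f libraries fitted alone it passed the threshold (edgeR adjusted p = 0.00191). Gsk3b, a kinase that marks several clock proteins, averaged 263 ± 33.7 CPM in APPko and 383 ± 116.5 CPM in wildtype (log2 change -0.54, edgeR adjusted p = 0.071). It was past the threshold with DESeq2 (adjusted p = 0.0199), with the suffix as covariate (edgeR adjusted p = 0.0307), in f libraries alone (0.0498) and without wildtype library 1 (0.0176) or wildtype library 4 (0.0462). Of all genes 1446 of 22150 passed with the suffix as covariate, and 38 to 1436 passed with 1 library left out.

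Genes that report on clock output or on signals that set clocks did not pass edgeR's test of all libraries either. This held for 6 output genes rhythmic in many tissues (median log2 change -0.0038), 8 glucocorticoid-responsive genes (-0.11) and 11 immediate early genes (-0.02). Among the output genes Tspan4 averaged 22.6 ± 3.97 CPM in APPko and 16.0 ± 5.96 CPM in wildtype (edgeR adjusted p = 0.156), and Cdkn1a 53.3 ± 9.09 CPM and 44.5 ± 6.75 CPM (edgeR adjusted p = 0.238). Of the glucocorticoid-responsive genes, Pdk4 averaged 3.03 ± 0.606 CPM in APPko and 4.19 ± 0.989 CPM in wildtype (edgeR adjusted p = 0.164), and Plin4 reached at most 0.853 CPM in APPko and 0.541 CPM in wildtype (edgeR adjusted p = 0.172). Of the immediate early genes, Junb averaged 7.07 ± 1.13 CPM in APPko and 4.99 ± 2.46 CPM in wildtype (edgeR adjusted p = 0.231), and Ier2 3.85 ± 0.692 CPM and 2.96 ± 0.794 CPM (edgeR adjusted p = 0.268). Tspan4 and Junb passed with the suffix as covariate (edgeR adjusted p = 0.0377 for Tspan4 and 0.0465 for Junb), in f libraries alone (0.0157 and 0.00264) and without wildtype library 4 (0.0342 and 0.0263), and Plin4 passed without wildtype library 4 (0.0389). Over all genes 1446 of 22150 passed with the suffix as covariate, 3672 of 23580 in f libraries alone and 1436 of 22579 without wildtype library 4.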

How the data were processed

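Polyadenylated RNA of single dentate gyri was amplified with a low-input kit (12 cycles, then 10 library cycles) and read as 151 bp pairs, per the labels' protocols. The authors deposited 1 table of unnormalised gene counts for each library. The submitters' processing notes name STAR 2.7.8a, featureCounts 2.0.1, cutadapt 3.5 and the build GRCm38 (mm10). Reads carry no molecular identifiers and may repeat a molecule. As a check for a library deposited more than once, the 43 library pairs within a genotype were compared, and the lowest chi-square per degree of freedom was 7.76. Genotypes came from the titles and the suffix from the file headers.

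Genes were filtered by genotype (edgeR's filterByExpr, 22150 kept of 55291), scaled by TMM and compared by edgeR 4.0.16's quasi-likelihood test (robust) in R 4.3.3, with Benjamini-Hochberg adjustment over all tested genes. Correlations used log2 CPM (prior count 2) minus genotype means, with two-sided permutation tests (100000 resamples within genotype). Scripts were tested on simulated data. Positions and exon lengths come from the deposited annotation. Alternatives were RLE, upper-quartile and total-count scaling, DESeq2 1.42.0, limma 3.58.1 voom, other filters, a replicate block, the suffix as covariate, f libraries alone, wildtype libraries 2 and 3 left out and each library left out. The fit that gives the change by suffix and the correlations within the larger Arntl set were added after seeing the data. The clock genes and lists were chosen with earlier results of these data known. Named genes are all 10 clock genes, App, at least 2 of each other list (those past the threshold, made up to 2 by the smallest p), and the 5 most like Arntl and Dbp, of which 1 is not reported here. The microglial genes C1qb and Tyrobp, and Ciart, were named after their values were seen.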

Additional observations from a re-analysis of the deposited data

Results flagged for a closer look

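APPko library 8 stood apart from the other 7 APPko libraries for 5 of the genes shown. It had 70.7 CPM of Per3 (nearest other library 39.2 CPM), 20.6 CPM of Arntl (nearest 32.0 CPM), 9.51 CPM of Dbp (nearest 4.83 CPM), 18.0 CPM of Nr1d1 (nearest 13.5 CPM) and 53.9 CPM of Csnk2a1 (nearest 90.1 CPM). In each case the gap to the nearest library, divided by the range of the group, was above Dixon's 95% critical value. For Arntl and Nr1d1 this ratio was 0.527 and 0.528, just above the critical value of 0.526. 42 sets of a gene in a genotype were examined and 5 stood out in this way. All 5 are of the same library, and some of the genes vary together. They are thus not separate results to set against the 1 in 20 that chance gives. APPko library 8 is the only APPko library with the suffix m, so suffix and library cannot be told apart.

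Of the clock genes and those named from other lists, 4 had opposite orders of the genotypes in f and m libraries. For these 4 all APPko f libraries lay on 1 side of all wildtype f libraries. The m library of APPko lay on the opposite side of all m libraries of wildtype. Hlf, Bhlhe41, Tspan4 and Junb also had the f libraries of the genotypes fully apart. For them the m library of APPko lay within the range of the wildtype m libraries. The log2 change in m minus that in f libraries was 2.92 for Per3, -1.74 for Arntl, 1.61 for Nr1d2 and -1.81 for Csnk2a1. All 4 rest on that same APPko library, and the difference was not tested. How many of all tested genes show this pattern was not counted. In f libraries 17.4% of all genes passed the threshold between the genotypes, so the pattern is not shown to be particular to these genes.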

How the results depend on the processing

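The count of genes past the threshold, 521, was 1765 with DESeq2, 1446 with the suffix as covariate, 3672 in f libraries alone and 35 without wildtype libraries 2 and 3, and it ran from 38 (without APPko library 5) to 1436 (without wildtype library 4) when 1 library was left out. Of the clock genes, 0 in the reported fit, 2 passed with DESeq2 (Per3 and Nr1d2), 1 with a filter of at least 1 CPM in 6 libraries (Per3), 1 with the suffix as covariate (Per3) and 3 in f libraries alone (Per3, Arntl and Nr1d2). With that filter of at least 1 CPM, 706 of 17627 genes passed. With 1 library left out 0 to 2 clock genes passed, Per3 and Nr1d2 without wildtype library 4 or APPko library 8, and Per3 without wildtype library 5 or 6. Without wildtype library 4, 1436 of 22579 genes passed. The count of all genes moved between 38 and 1436 over these fits. The calls are therefore not shown to be particular to the clock genes. The Per3 change kept its sign, from -2.24 to -0.61. Signs turned with total counts for Cry2 (0.067), Clock (0.052) and Nr1d1 (0.0055), with no filter for Cry2 (0.023), and without wildtype libraries 2 and 3 for Dbp (0.057). With 1 library left out the change ran across 0 for Per1 (-0.165 to 0.088), Per2 (-0.254 to 0.0067), Cry2 (-0.076 to 0.082) and Nr1d1 (-0.196 to 0.021). The 4 pairs of clock genes past the threshold were 0 in f libraries alone and 0 within the larger Arntl set, with fewer libraries in both. The causes of the other shifts were not tested. Total counts moved the median of all genes by 0.09 on the log2 scale.

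With the replicate number as a block 21 genes and 0 clock genes passed. Deviations of libraries with the same number correlated between -0.346 and 0.303. No set of differently numbered libraries served as a reference, so these values cannot decide whether the numbers pair the samples. Header numbers restart within each suffix and depart from the label numbers in wildtype from 4 on and in APPko at 8. By header number and suffix, wildtype library 4 would go with APPko library 8, and their deviations correlated at -0.069.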

Other observations

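Ciart, a repressor of the clock that is itself driven through E-boxes, was named after its values were seen. It had 50.3 CPM in APPko library 8 and 16.2 to 24.9 CPM in the other 7 APPko libraries, against 65.04 CPM in wildtype library 3 and 16.7 to 26.0 CPM in the other 5 wildtype libraries. These are 2 of the 4 libraries with little Arntl, and in the other 2, wildtype libraries 1 and 2, Ciart had 17.1 and 26.0 CPM.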
